A study of Saccharomyces cerevisiae with 41 samples.

Results

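Pre-40S particles of Saccharomyces cerevisiae caught through Enp1 were compared with those caught through Tsr1, by the rate at which reverse transcriptase dropped off the 18S sequence after treatment with 1M7. The comparison takes the Tsr1 column against the Enp1 column of the authors' averages, at all nucleotides from 2 to 1800. It rests on 9 of the 41 samples of the series: 2 of Enp1, 3 of Tsr1 and 4 of the mid-early control that both share. The Enp1 samples came from BY4741 with enp1-HTP::K.I.URA3 and the Tsr1 samples from BY4741 with tsr1-HTP::K.I.URA3, both treated with 1M7 and both labelled as purified 20S ribosomal RNA. The control samples were not treated with 1M7, were labelled 20S as well, and came from 1 strain each with the HTP tag on Enp1, Ltv1, Tsr1 or Rio2. Labels do not say whether the samples of a group were separate cultures. A rate is a fraction between 0 and 1, each column is the authors' mean, and neither replicate values nor read depths were among the data. The depth behind a value and the spread between replicates are therefore unknown, and the differences below are given as sizes without a test.

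The 20S pre-rRNA carries the whole 18S sequence plus a 3' extension that is removed last, in the cytoplasm. Enp1 joins the small subunit early in the nucleus and is known to sit on the beak of the head beside Ltv1 until phosphorylation releases it. Tsr1 is a GTPase-like protein without GTPase activity that lies on the face of the particle that will meet the large subunit, close to helix 44 (h44), and keeps translation factors away from it. 1M7 acylates the ribose of flexible nucleotides, and the adduct stops reverse transcriptase, so that a listed position is the stop and the modified nucleotide is the next one on its 5' side. Nucleotides below are named by the stop.

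Stretches of the 18S sequence that carry most of the grouped differences are printed here from the deposited table, 5' to 3', with T written as U. In the first 3, capitals mark stops with a lower rate in Tsr1. In the last, from h45, they mark stops with a higher rate in Tsr1.
From C596 to G616, in the window of h18 to h20: cguauauuAAAGuUguugcag
From G1042 to G1064, in the platform window: gaucgggugGUGUuuuuuuaaug
From G1715 to G1767, the end of h44: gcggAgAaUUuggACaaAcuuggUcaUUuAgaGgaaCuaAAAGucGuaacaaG
From G1768 to G1792, h45 with the base before it: guuUCcGuAgGUGAaccugcggaag

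Enp1 and Tsr1 particles gave closely matching profiles. Of the 1799 nucleotides, 1320 had a mean rate of at least 0.01 over both columns. A nucleotide was counted as different when the ratio of the rates, each with 0.005 added, was 1.5-fold or more. The rate was different by that measure at 114 of the 1320 (8.64%), higher in Tsr1 at 44 (3.33%) and lower at 70 (5.3%). No other pair among the 8 1M7 columns was as close, the 28 pairs having a median of 416 such nucleotides. Within the mid-early purifications, Tsr1 differed from Ltv1 at 284 of 1304 (21.8%) and from Rio2 at 382 of 1366 (28%), and Enp1 differed from Ltv1 at 437 of 1362 (32.1%). In pairs with mature 80S ribosomes, whose RNA is labelled 18S, Tsr1 was apart at 164 of 1252 (13.1%) and Enp1 at 280 of 1306 (21.4%). An untreated pair differed more than Enp1 and Tsr1 did: the DMSO column of Tsr1 from the NAI set and the mid-early control were apart at 307 of 1394 (22%). The rates of Enp1 and Tsr1 had r = 0.950 across the 1799 nucleotides, a description, since neighbouring nucleotides come from the same cDNAs.

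**Figure D1:**
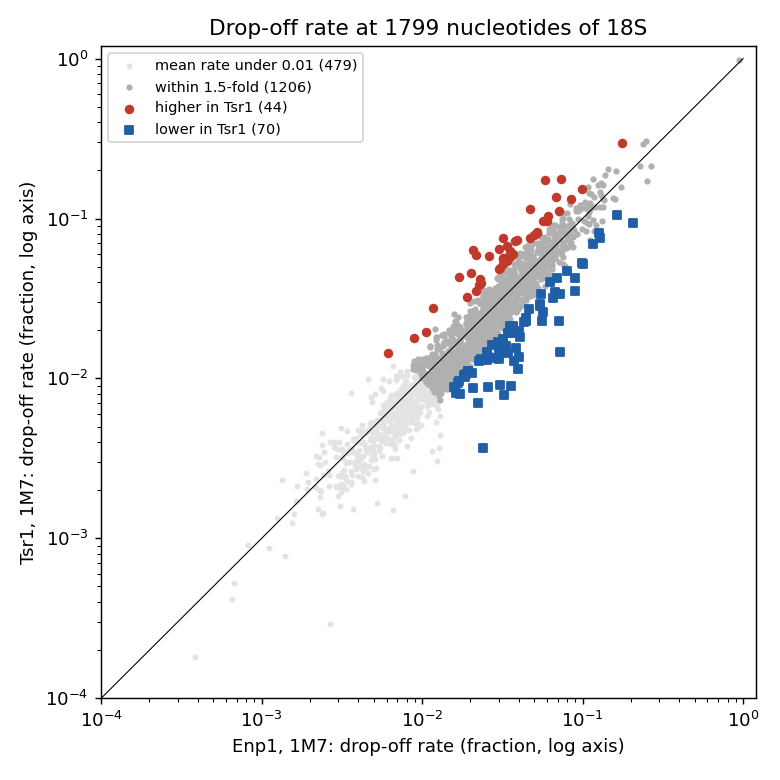
Drop-off rate of each nucleotide in Tsr1 (vertical) against Enp1 (horizontal), both as fractions on log axes. Red circles are the 44 stops higher in Tsr1, blue squares the 70 lower in Tsr1, grey points the remaining nucleotides, and the line marks equal rates, along which most points lie.

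Subtracting the shared control leaves every difference between the rates as it was, but it changes the ratios and places each stop against untreated RNA. The stops were chosen for Enp1 being high or low beside Tsr1, which by itself favours an Enp1 rate above the control at the first set and below it at the second, so these counts are a description. At the 70 stops lower in Tsr1, Enp1 lay above the control at 68, against 51.4% of all 1320 nucleotides, and Tsr1 lay above it at 40 (57.1%, against 44.2%). Median rates there were 0.0357 in Enp1, 0.0161 in Tsr1 and 0.0149 in the control. At the 44 stops higher in Tsr1, Enp1 lay below the control at 41, against 48.6% of all 1320 nucleotides, and Tsr1 lay below it at 26 (59.1%, near its 55.8% of all 1320). Median rates there were 0.0332 in Enp1, 0.0613 in Tsr1 and 0.0648 in the control.

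Both sets also differed in the base that 1M7 reads, the one 5' of the stop. That base was guanine at 31 of the 44 stops higher in Tsr1, against 24.5% of all 1320 nucleotides. At the 70 stops lower in Tsr1 it was adenine at 32, against 29.5% of the 1320, and uracil at 17 (24.3%, against 28.5%). Over all nucleotides above the filter, the median log2 ratio of Tsr1 to Enp1 was -0.15 where that base was adenine, -0.13 where it was uracil, 0.00 where it was cytosine and 0.08 where it was guanine. Against the control, the median log2 ratio with adenine 5' of the stop was 0.25 in Enp1 and 0.08 in Tsr1.

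Counted as excess over the control, Enp1 had more reactive nucleotides. A rate at least 0.02 above the control was found at 170 of the 1799 nucleotides in Enp1 (9.45%) and 127 in Tsr1 (7.06%), 104 of them shared. The 66 found in Enp1 alone had a median excess of 0.0265 in Enp1 and 0.0131 in Tsr1, and Tsr1 lay above the control at 62 of them. The 23 found in Tsr1 alone had a median excess of 0.0286 in Tsr1 and 0.00865 in Enp1. Most sites found in 1 column alone, 39 of the 66 and 19 of the 23, were not counted as different by 1.5-fold. Summed over the molecule, the excess over the control was 11.6 in Enp1 and 9.45 in Tsr1, and the shortfall below it was 10.5 and 9.28. In both directions the Tsr1 column thus stood nearer to the control. By 1.5-fold, Enp1 differed from the control at 474 of 1377 nucleotides (34.4%) and Tsr1 at 362 of 1318 (27.5%). The median log2 ratio of the 1320 nucleotides was -0.07, and with that shift removed the split of 44 higher and 70 lower became 55 and 52 (8.11% in all). With the control subtracted before the ratio, 94 were higher and 246 lower (25.8%). With the excess over the control divided in each column by the mean of that column's high excesses (the top 10% without the top 2%; 0.0320 in Enp1 and 0.0267 in Tsr1), 107 of all 1799 were higher and 67 lower by 0.5 or more (9.67%). The direction in which most nucleotides differed therefore depended on the scale.

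The strongest 1M7 sites were taken by the mean of both columns, a choice that favours stops high in both. By mean excess over the control the 10 highest stops lay in the head at U1311, A1312, A1313, U1347, A1391, U1398, C1399 and U1491, in expansion segment 6 at U695, and in the 5' domain at U494. None of the 10 differed by 1.5-fold, against 8.64% of all 1320 nucleotides, and 10 stops are too few to set apart from that share. U695 had a rate of 0.268 in Enp1 and 0.213 in Tsr1, with 0.0311 in the control. A1391 had 0.238 in Enp1 and 0.292 in Tsr1, with 0.0728 in the control. A1312 had 0.173 and 0.158, with 0.00737 in the control. C1399 came nearest to the limit, with 0.251 in Enp1 and 0.172 in Tsr1 (log2 ratio -0.53). These are printed with the 10 highest stops in capitals.
From A685 to U705, in expansion segment 6: acggggccuuUccuucuggcu
From G1304 to G1318, in the head: gucugcuUAAuugcg
From G1386 to C1404, in the head: ggacuAucgguuUCaagcc

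By position, the differences gathered at the 3' end of the molecule. The last window, C1632 to A1800, held 33 of the 114 and 104 of the 1320 nucleotides above the filter. In it 25 were lower in Tsr1 (24% of its 104, against 5.3% of the whole) and 8 were higher (7.69%, against 3.33%). In the 8 windows before it the share lower in Tsr1 ran from 1.04% to 8.43%. The share higher ran from 0.599%, in expansion segment 6, to 7.53%, in the head from h28 to h34. The second part of the 5' domain, G291 to U546, was the other way round from the molecule as a whole, with 10 higher and 2 lower among 192. That order was lost with a control subtracted before the ratio, with 17 higher and 18 lower after the mid-early control and 21 and 22 after the DMSO column of Tsr1. It was kept with the median shift removed, with 10 higher and 1 lower. With the excess divided by each column's mean high excess it was kept too, with 16 higher and 4 lower by 0.5 or more.

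**Figure D2:**
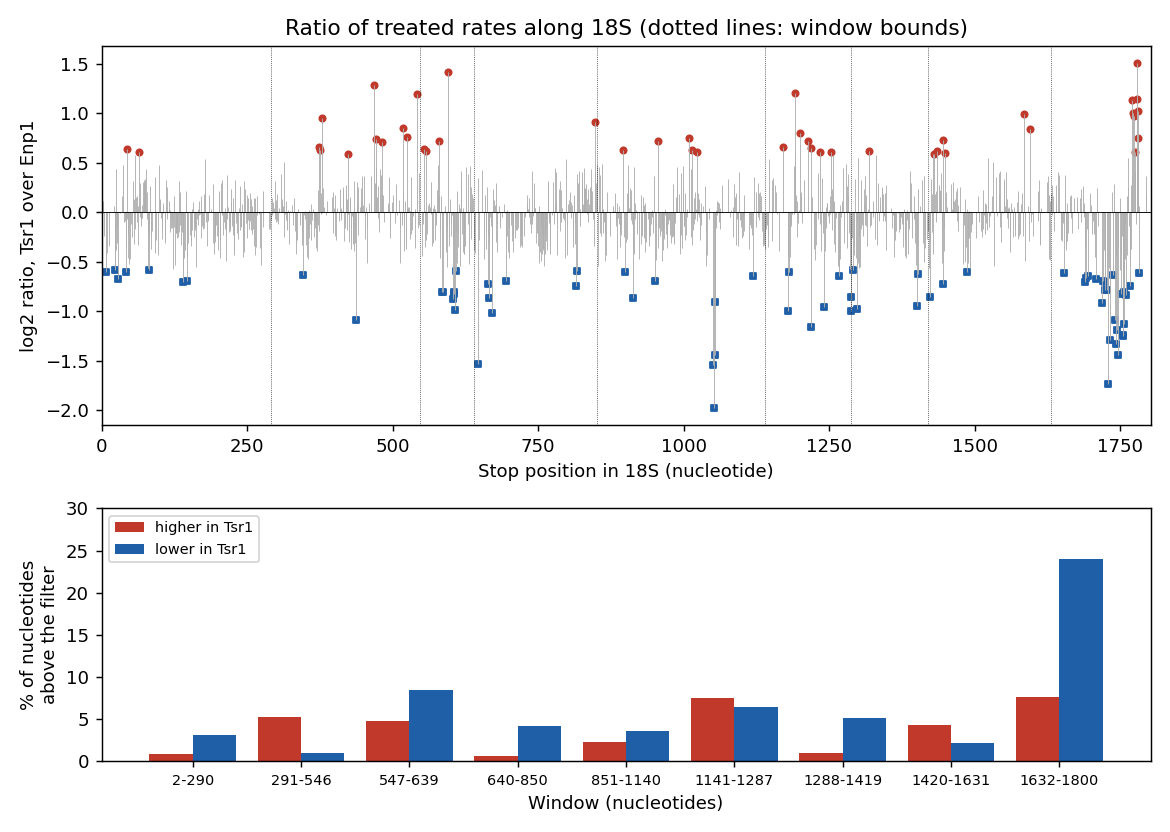
Upper panel: log2 ratio of the Tsr1 to the Enp1 rate (0.005 added to each) at the 1320 nucleotides above the filter, by stop position in 18S, with the 44 higher (red circles) and 70 lower (blue squares) marked. Lower panel: percent of nucleotides above the filter that were higher (red) or lower (blue) in Tsr1 in each of 9 windows, the last of which reaches 24% lower.

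Helix h44, the long helix of the subunit interface that holds the decoding site in the mature ribosome, had lower rates in Tsr1. Of its 85 nucleotides above the filter, 24 were lower in Tsr1 and 0 higher, with a median log2 ratio of -0.22 against -0.07 over all. The differences lay on its 3' side: 20 of the 46 between A1701 and G1767 were lower, against 4 of the 39 between C1634 and C1700, a division made after the values were seen. The mean rate from A1701 to G1767 was 0.0337 in Enp1, 0.0243 in Tsr1 and 0.0232 in the control. In the untreated DMSO column of Tsr1 it was 0.0266, above the 0.0243 of treated Tsr1. The other mid-early purifications stood on either side, with 0.0323 in Ltv1 and 0.0204 in Rio2.

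The stops A1754, A1755, A1756 and G1757 stood next to each other in this stretch. They read the nucleotides from A1753 to A1756, of which A1755 and A1756 monitor the codon in the mature ribosome. At stop A1756, which reads A1755, the rate was 0.0546 in Enp1, 0.0291 in Tsr1 and 0.0153 in the control. At stop G1757, which reads A1756, it was 0.0559, 0.0229 and 0.0127. Stop A1755 had the largest difference of h44, from 0.0896 in Enp1 to 0.0351 in Tsr1, with 0.0251 in the control (log2 ratio -1.24). At all 4 stops Tsr1 lay between the mid-early control and Enp1. Beside the DMSO column of Tsr1, it was higher at A1754, A1755 and G1757 but lower at A1756, where DMSO had 0.0382. In the other mid-early columns A1755 had 0.0889 in Ltv1 and 0.016 in Rio2. In mature 80S ribosomes it had 0.00535, between untreated values of 0.0162 in the late control and 0 in the DMSO column of 80S. Enp1 shared its high rate at this stop with Ltv1. Ltv1 was high at A1756 as well (0.071, with 0.0192 in Rio2). It was well below Enp1 at A1754 (0.0162, with 0.0373 in Enp1) and at G1757 (0.0205, with 0.0297 in Rio2). The largest ratio of h44 was at C1729, 0.0239 in Enp1 and 0.00368 in Tsr1, with a Tsr1 rate below the control of 0.0101. Other members included G1747 (0.0397 and 0.0115), U1742 (0.0306 and 0.00912) and A1732 (0.0404 and 0.0136).

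Helix h45, the short hairpin that follows h44 and carries a pair of dimethylated adenines, went the other way. Of its 14 nucleotides above the filter, 8 were higher in Tsr1 and 1 lower, and the 8 lay between U1771 and A1781. U1779 had 0.0579 in Enp1, 0.174 in Tsr1 and 0.199 in the control (log2 ratio 1.50). A1781 had 0.176 in Enp1, 0.299 in Tsr1 and 0.346 in the control, the largest difference in rate. G1778 had 0.0317, 0.076 and 0.0839. Enp1 lay below the control at all 8, and Tsr1 at all but A1776 (0.112, with 0.0987 in the control). No nucleotide of h45 had a rate 0.02 above the control in either column, and with the control subtracted before the ratio 1 of the 8 was left, since rates below the control were then set to 0.

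The exception in h45 was C1783, the stop that reads the dimethylated A1782, with 0.164 in Enp1, 0.105 in Tsr1 and 0.156 in the control. Stop A1782, which reads the dimethylated A1781, had a rate of 0.937 in Enp1, 0.978 in Tsr1 and 0.977 in the control. A stop this strong lies 3' of h44 and most of h45, and the depth left on its 5' side is unknown. Without the window from C1632 to A1800, 36 stops were higher and 45 lower in Tsr1.

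**Figure D3:**
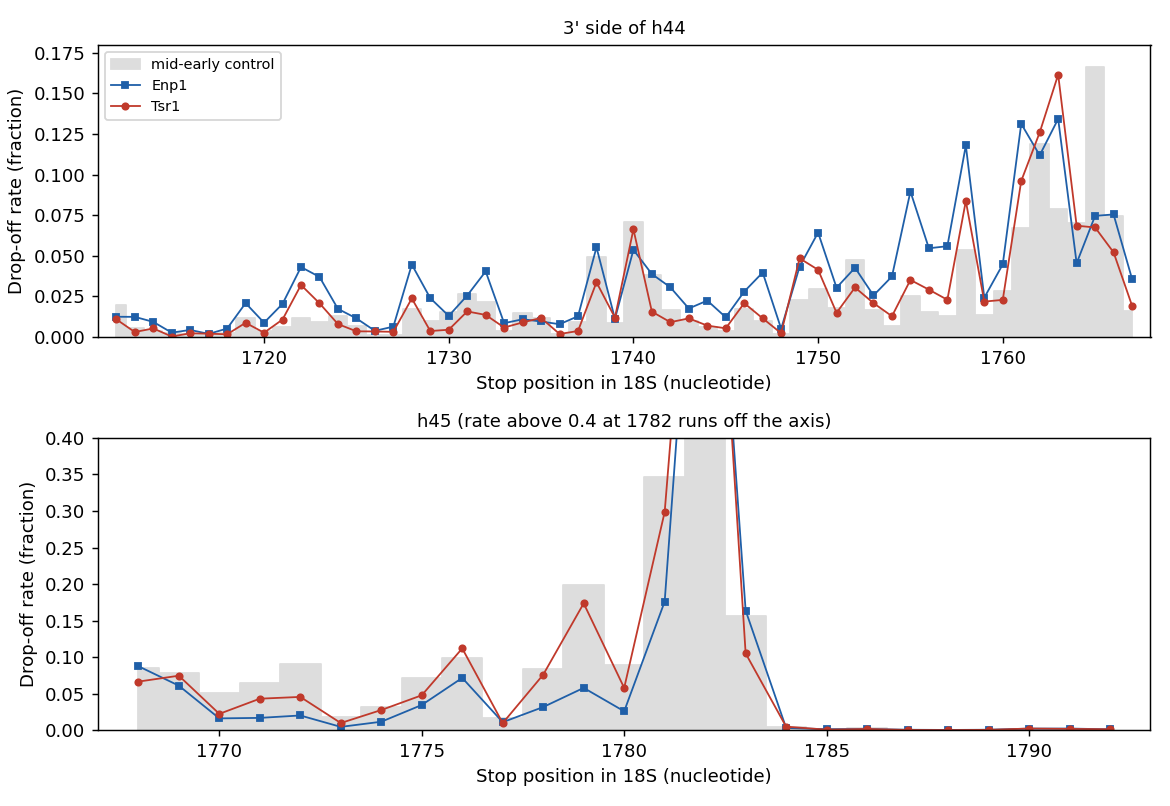
Drop-off rate (fraction) by stop position in 18S for Enp1 (blue squares), Tsr1 (red circles) and the mid-early control (grey area). On the 3' side of h44 (upper panel) Enp1 exceeds Tsr1 at most stops, as at A1755 (0.0896 and 0.0351), whereas in h45 (lower panel) Tsr1 exceeds Enp1 at most stops up to A1782 and lies nearer to the control, as at U1779 (0.174 and 0.0579).

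Outside h44 and h45, stops that differed stood together in 2 places, where at least 4 of 10 neighbouring positions were counted in 1 direction. In the platform window, which holds the central domain from h22 to h27, the 4 stops from G1051 to U1054 were all lower in Tsr1. U1052 had 0.0724 in Enp1 and 0.0147 in Tsr1, beside 0.0145 in the control, 0.00771 in Ltv1 and 0.0193 in Rio2. Its log2 ratio of -1.98 was the largest among the nucleotides above the filter with 0.005 added to the rates; with 0.001 added, C1729 of h44 came first (-2.41, against -2.23). G1051 had 0.0356 in Enp1 and 0.00898 in Tsr1, with 0.0105 in the control. G1053 had 0.0709 and 0.023, with 0.0263 in the control, and U1054 had 0.101 and 0.0518, with 0.0611. At all 4 stops Enp1 was above the control and Ltv1 below it. Tsr1 was below the control at G1051, G1053 and U1054 and only 0.000135 above it at U1052. From U1055 on the columns came together again, with log2 ratios of -0.16 at U1055 and 0.02 at U1056.

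The second place was A604 to U609 in the window of h18 to h20, where 5 of 6 stops were lower in Tsr1. A605 had 0.0542 in Enp1 and 0.0284 in Tsr1, with 0.0229 in the control. G607 had 0.0407 and 0.0181, with 0.00792 in the control. U608, between them and U609, had a log2 ratio of -0.19. Nearby, G595 was a stop higher in Tsr1 and above background: its rate was 0.0633 in Tsr1 and 0.0206 in Enp1, with 0.012 in the control, 0.00957 in Ltv1 and 0.00993 in Rio2. Tsr1 was thus alone at G595 among the mid-early columns. In the NAI set, Tsr1 had 0.0118 there with DMSO and 0.00502 with NAI, so in Tsr1 the high rate was not seen with that reagent. Rio1 particles did have a high rate with NAI at this stop (0.124), beside 0.00717 with 1M7. Mature 80S ribosomes had 0.0304 with 1M7.

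In the head, G1288 at the start of the h35 to h40 window had 0.0898 in Enp1, 0.0426 in Tsr1 and 0.0101 in the control, with 0.0367 in Ltv1 and 0.0461 in Rio2. A1401, close to the strong site at C1399, had 0.0656 and 0.0317, with 0.008 in the control. Both were above the control in all 4 mid-early columns, highest in Enp1. The window as a whole had 5 stops lower among 98 (5.1%, near the 5.3% of the whole molecule) and 1 higher (1.02%, under the 3.33% of the whole). In h28 to h34, the window with the helices next to the binding place of Enp1, 7 of 93 were higher (7.53%, against 3.33% of the whole molecule) and 6 lower (6.45%, against 5.3%). U1423 of the next window had 0.0994 in Enp1 and 0.0528 in Tsr1, with 0.0395 in the control.

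In expansion segment 6, a eukaryotic insertion in the central domain, 7 of 167 stops were lower in Tsr1 (4.19%, against 5.3% of the whole molecule) and 1 was higher (0.599%, against 3.33%), both under the share of the whole. U664 had 0.128 in Enp1 and 0.0755 in Tsr1, with 0.0385 in the control. U694, next to the shared strong site U695, had 0.115 and 0.0693, with 0.0156 in the control. Ltv1 and Rio2 were lower still at both, with 0.0349 and 0.0361 at U664 and 0.0461 and 0.0332 at U694. At these 2 sites the order was thus Enp1 above Tsr1 above the other mid-early columns.

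The Enp1 column stood at the edge of the 4 mid-early columns at most of the differing stops. It was the highest of the 4 at 57 of the 70 stops lower in Tsr1, against 34.8% of all 1320. It was the lowest at 38 of the 44 higher in Tsr1, against 18.5%. Tsr1 was the lowest of the 4 at 17 of the 70 (24.3%, against 20.3%) and the highest at 19 of the 44 (43.2%, against 18.7%). The choice of stops that differ between Enp1 and Tsr1 raises all these shares, so they are a description. Tsr1 was nearer to the control than Enp1 was at 58 of the 70 (82.9%) and at 36 of the 44 (81.8%), against 795 of all 1320 (60.2%), and the choice of stops bears on these shares too.

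**Figure D4:**
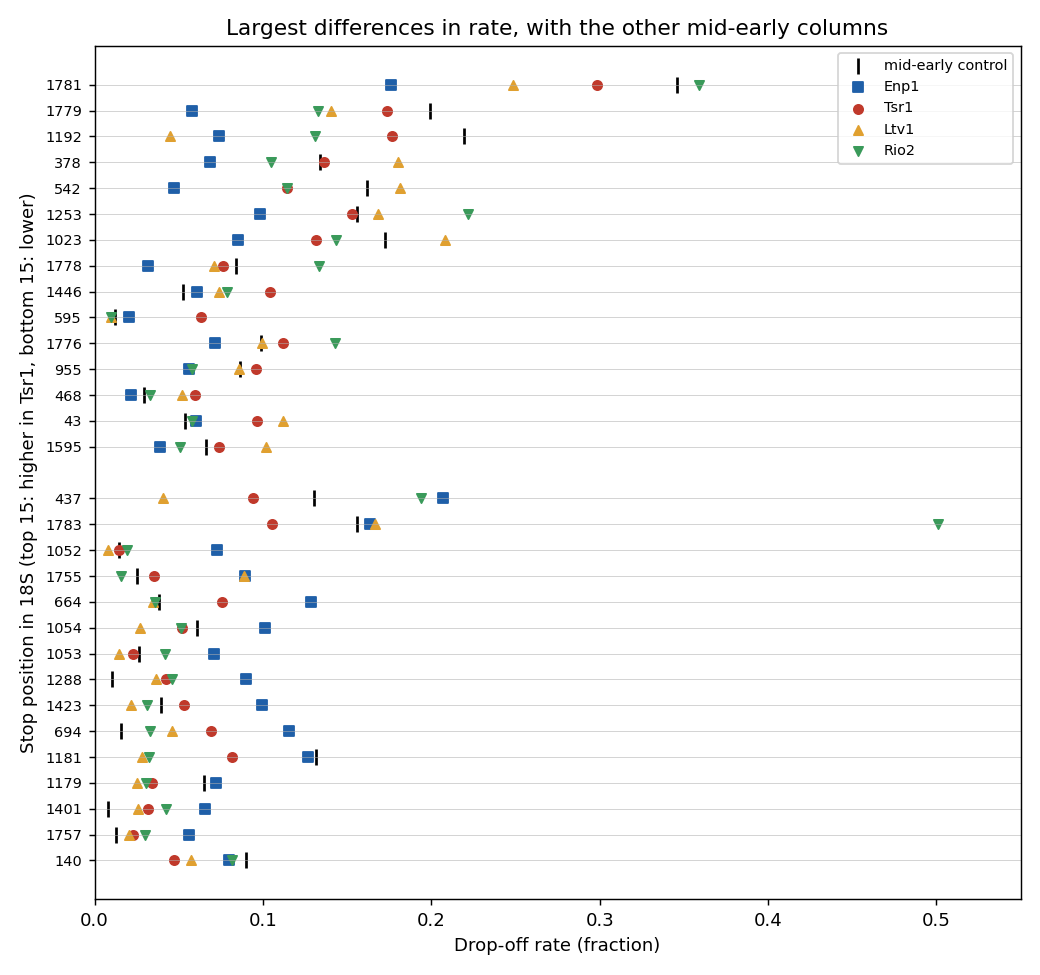
Drop-off rates (fraction) at the 15 stops with the largest excess of Tsr1 over Enp1 (top) and the 15 with the largest excess of Enp1 over Tsr1 (bottom), for the 4 mid-early 1M7 columns and their control, by stop position in 18S. At most of the top 15, Enp1 (blue squares) lies left of the control, as at A1781 (0.176 and 0.346), and at most of the bottom 15 it lies right of it, as at U1052 (0.0724 and 0.0145).

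Nucleotides that cells modify gave some of the largest single differences. The list held 18 ribose-methylated nucleotides and 6 with a modified base. The stop 3' of ribose-methylated A436, A437, had the largest excess of Enp1 of the molecule among the counted stops. Its rate was 0.207 in Enp1, 0.0944 in Tsr1 and 0.13 in the control. Rio2 shared the high rate (0.194) and Ltv1 did not (0.0404). Other control columns ran from 0.0534, in the DMSO column of Tsr1, to 0.181, in the column of control averages. With NAI, Tsr1 had 0.211 at this stop. The stop 3' of ribose-methylated A541, A542, went the other way, with 0.0472 in Enp1, 0.114 in Tsr1 and 0.162 in the control. These stops are in capitals below, with a further stop higher in Tsr1, G553, in the second line.
From A425 to C449: agcaggcgcgcaAauuacccaaucc
From C530 to C554: ccuuaacgaggaAcaauuggaggGc

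Of the 18 stops 3' of ribose-methylated nucleotides, 14 passed the filter. Of these, 2 were higher in Tsr1 (A542 and A579; 14.3%, against 3.33% of all nucleotides) and 1 was lower (A437; 7.14%, against 5.3%), counts too small to set apart from the whole. A579, the stop 3' of U578, had 0.032 in Enp1, 0.0558 in Tsr1 and 0.0937 in the control. G1429 and G797 lay just under the limit, with log2 ratios of 0.58 and 0.54. The median log2 ratio of the 14 was 0.13, against -0.07 over all 1320 nucleotides. Enp1 lay below the control at 15 of the 18 and Tsr1 at 17, so that both purifications stood below untreated RNA at most of these stops.

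Of the base modifications, the hypermodified U1191 in the loop of h31, which lies in the P site of the mature ribosome, gave the largest difference apart from h45. Its stop C1192 had 0.0737 in Enp1, 0.176 in Tsr1 and 0.219 in the control, with 0.045 in Ltv1 and 0.131 in Rio2. The rate at this stop is far higher in mature 80S (0.73), and also in Nob1 (0.792) and Rio1 (0.681). Untreated columns were as high, with 0.787 in the late control and 0.712 in the DMSO column of 80S. Neither A1193, the stop after it (0.0195 in Enp1 and 0.0227 in Tsr1), nor U1191 (0.0713 and 0.108) passed 1.5-fold. U1181, the first stop of the same element, reads the nucleotide just before that element. It was lower in Tsr1, with 0.127 in Enp1, 0.0816 in Tsr1 and 0.131 in the control. Acetylated C1773 is read by G1774, which was higher in Tsr1 with 0.0116 in Enp1, 0.0277 in Tsr1 and 0.0316 in the control. At acetylated C1280 and methylated G1575, read by G1281 and A1576, the log2 ratios were -0.36 and -0.24. Of the 6 stops 3' of modified bases, all above the filter, 2 were higher in Tsr1 (33.3%, against 3.33% of all nucleotides). C1783 was the 1 lower (16.7%, against 5.3%), and these counts too are too small to set apart from the whole.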

How the data were processed

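Tagged proteins were used to immunoprecipitate the particles, and random hexamers primed cDNA synthesis on the extracted RNA, per the labels' protocols. The authors deposited 1 table of average drop-off rates, each a fraction between 0 and 1, in 17 columns. The submitters' processing notes name Novoalign 2.07. The rate formula, the reference and how averages were taken are not given in these sources. Mean rates over nucleotides 2 to 1800 were 0.0292 in Enp1, 0.0287 in Tsr1 and 0.0286 in the mid-early control. How rates were scaled between columns is not stated, and read depth is unknown, so no interval is given.

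Nucleotide 1, listed at 1 in each column, was left out. The log2 ratio was log2 of (Tsr1 rate + 0.005) over (Enp1 rate + 0.005), which understates changes of low rates. Nucleotides with a mean rate of at least 0.01 were counted, at 1.5-fold. The members, lists and limits were chosen with earlier results of these data known. Nucleotides named were the 15 largest differences each way, the largest in each of the 9 windows, the 10 highest mean excesses, members of runs, and 24 listed modified nucleotides with their stops; G553, U608, A1193, U1055 and U1056 were named after their values were seen. Window bounds follow the deposited numbering. Helix bounds and the positions of the modified nucleotides came from textbook knowledge of yeast 18S, not from the deposited data. The 18S genes RDN18-1 and RDN18-2 are each 1800 nucleotides long in RefSeq; no build is named in the table, so no chromosome position is given. The counting step was tested on simulated data. Python 3.11.15, numpy 2.4.6, pandas 2.3.3 and matplotlib 3.10.9 were used.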

Additional observations from a re-analysis of the deposited data

How the results depend on the processing

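Each column is an average, so leaving out a replicate was not possible. No paired analysis was possible because the columns carry no replicate numbers. A pseudocount of 0.001 gave 114 stops lower in Tsr1, and 0.01 gave 26 higher. A fold of 2 left 25 (9 higher and 16 lower), with 9 lower in h44 and in h45 5 higher and 0 lower. Median scaling gave 1 higher in h44 and 0 lower in h45. Subtracting the mid-early control gave 340 (94 higher, 246 lower), with 4 higher in h44 and 1 higher in h45. Subtracting the DMSO column of Tsr1 gave 316 (97 higher, 219 lower), with 3 higher in h44 and 4 in h45. The cause of these larger counts was not tested. Scaled reactivity gave 174 (107 higher), with 3 higher in h44. Without the window from C1632 to A1800, a setting chosen after seeing the data, 45 were lower. An excess of 0.01 gave 200 shared sites and 53 of Tsr1 alone. An excess of 0.03 gave 68 shared, 41 of Enp1 alone and 14 of Tsr1 alone. Most of these settings cannot turn the direction of a single stop, so no count of kept directions is given. Of the 62 single stops followed, 14 fell under 1.5-fold with the mid-early control subtracted. The number of stops lower in h44 stayed within 1.5 times 24 in all settings but the fold of 2.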

Other observations

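The difference of Rio2 from Ltv1 uses none of the treated columns compared above. Across the 1799 nucleotides, Tsr1 minus Enp1 had r = -0.264 with Rio2 minus Ltv1, and r = -0.439 across the 1630 nucleotides up to A1631. Nucleotides of 1 column share its libraries, and neighbours share cDNAs, so these are descriptions.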
